A study of Mus musculus with 12 samples.

Results

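Granulocyte-macrophage precursors (preGM) that carry MLL-ENL were compared with haematopoietic stem cells (HSC) that carry it, in 3 RNA-seq libraries of each cell type. These are 6 of the 12 libraries of the study and were chosen by their titles. The other 6, from 3 WT HSC and 3 WT preGM samples, serve as the reference for where the contrast differs. MLL-ENL cells came from a strain labelled Col1a1-MLL/ENL, in which a doxycycline-inducible fusion gene sits at the collagen locus Col1a1, and WT cells from C57bl/6 mice. HSC were sorted as lineage-negative cells that stained for Sca1, ckit and CD150 but not CD48. preGM were sorted as lineage-negative, ckit-positive cells without Sca1, CD150, CD105, CD41 or CD16/32. All 4 groups, WT included, spent 48 h in OptiMEM with 10% FCS and doxycycline (1 µg/ml), with SCF (10 to 50 ng/ml), G-CSF (5 ng/ml) and IL3 (5 ng/ml) as cytokines. The cells measured are therefore the progeny of the sorted populations after 48 h with myeloid cytokines, in which a stem cell can also divide and differentiate. Since each MLL-ENL library saw doxycycline, the fusion and the strain background cannot be told apart. No age is given, and nothing in the labels ties a replicate to an animal or a culture of its own. The p-values therefore measure only how far these libraries spread, which may be technical.

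MLL (Kmt2a) is a histone H3 lysine 4 methyltransferase that keeps HOX genes active in blood stem cells. ENL (Mllt1) reads acylated histones and belongs to a complex that releases paused RNA polymerase, so the fusion is known for holding HOXA genes and Meis1 active. On the way from stem cell to granulocyte, precursors first make the enzymes of the primary (azurophil) granule, then those of the secondary and tertiary granules. Fusions of MLL are known to transform committed myeloid precursors as well as stem cells in mouse models.

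Gene counts per library came to 19.0 to 23.5 megacounts in MLL-ENL HSC and 38.5 to 50.3 in MLL-ENL preGM, so the preGM libraries were deeper. Mitochondrial genes took 6.32% to 6.70% of counts in MLL-ENL HSC and 1.83% to 3.12% in MLL-ENL preGM. MLL-ENL preGM replicate 1 stands apart from replicates 2 and 3. On the second principal component of the 6 libraries, which follows a first component with 74.9% of the variance, it lies at -73.9, and replicates 2 and 3 at 41.0 and 29.1. It also has 3.50 intron counts per 100 gene counts, against 1.73 and 1.49. The contrast between replicate 1 and the others follows exon length: over 9143 genes at 10 CPM or more, the log2 ratio of replicate 1 to the mean of the others had a Spearman correlation of 0.472 with exon length, a description across genes. Its median went from -0.76 in the shortest of 5 equal bins of exon length (median 1339 bases) to 0.40 in the longest (median 8115 bases). Genes with long exons tend to be high in this library and genes with short exons low. The difference between cell types also runs with length in both genotypes: from the shortest to the longest bin its median fell from 0.54 to -0.16 with MLL-ENL, from 0.74 to -0.34 without replicate 1, and from 0.69 to -0.34 in WT. The part of RNA quality in this pattern was not tested, and list counts that change without preGM replicate 1 are given with and without it. WT preGM replicate 2 also stands apart in its group, with a chi-square per degree of freedom of 447 and 536 to the other WT preGM libraries, against 26.1 between those.

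**Figure D1:**
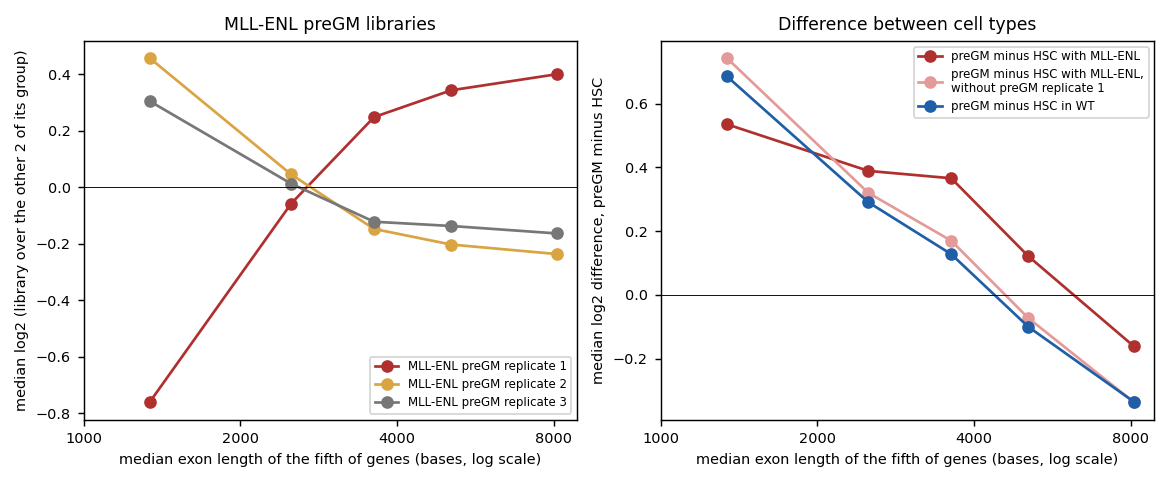
Median log2 values in 5 equal bins of exon length, for 9143 genes at 10 CPM or more, with the median exon length in bases on a log axis. Left, each MLL-ENL preGM library over the mean of the other 2 (replicate 1 runs from -0.76 to 0.40). Right, the difference between preGM and HSC, which falls with length in both genotypes.

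The contrast was large. Of 15711 genes tested, 3199 (20.4%) rose and 3321 (21.1%) fell in MLL-ENL preGM relative to MLL-ENL HSC (41.5% in all), by the edgeR quasi-likelihood test on counts with a Benjamini-Hochberg adjusted p under 0.05. Of these, 2473 rose and 2789 fell by more than 2-fold. The direction of small differences depends on the scaling. TMM scaling put the median of all genes at 0.00, and scaling by library size alone moved it to -0.56, with 1218 genes higher and 5515 lower. List counts given below for library size alone are to be read against these counts. Levels are CPM, each gene count over its library total with the usual scale factor, after TMM scaling, differences are log2 of preGM over HSC with their standard error (SE), and all adjusted p-values come from this test. In bulk samples, fewer cells of a type and less RNA per cell cannot be told apart. Without preGM replicate 1, 3243 genes rose and 3651 fell, and 2719 and 2914 of them were the same genes as before. The same contrast in WT, with no library in common, called 2888 genes higher (18.4%) and 3156 lower (20.1%), or 38.5% in all. Of the genes named below, Hoxa3, Hoxa7, Mpo, Ccnd1, Rb1, G6pdx and Bid overlap another gene over 10% or more of their exon bases, which makes their counts uncertain. Calls shared by both genotypes number 1870 of the higher genes (58.5% of the MLL-ENL and 64.8% of the WT calls) and 2160 of the lower ones (65.0% and 68.4%).

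The genes of the sorting antigens were read first. Their directions are not independent of the sort, because these proteins set the gates. All 8 of these genes were called, 3 higher and 5 lower, against 20.4% and 21.1% of all genes, and 3 higher and 3 lower without preGM replicate 2 or 3. Cd48 (gene at chromosome 1, 171682009 to 171705258), whose protein was absent from the HSC gate, had 6.39, 4.18 and 6.44 CPM in the HSC libraries and 366, 676 and 652 CPM in the preGM libraries. Its groups lie far apart, with a log2 difference of 6.64 ± 0.40 (SE, adjusted p = 1.65e-08). Ly6a (chromosome 15, 74994877 to 74998031), one of the genes for Sca1, had 202, 237 and 199 CPM in HSC and 5.04, 6.40 and 8.34 CPM in preGM, and Slamf1 (chromosome 1, 171767127 to 171801184), which encodes CD150, 12.2, 16.7 and 15.3 and 0.978, 1.01 and 1.82 CPM. Ly6a fell by log2 5.01 (adjusted p = 1.06e-08) and Slamf1 by 3.53 (adjusted p = 3.13e-06). In WT, Ly6a had 125, 141 and 150.3 CPM in HSC and 21.0, 28.0 and 20.2 CPM in preGM, a smaller fall (interaction -2.42 ± 0.34 SE, adjusted p = 0.000811). Eng (CD105) and Itga2b (CD41) fell too, by 3.26 and 1.26 (adjusted p = 9.38e-07 and 0.0133), the latter with adjusted p = 0.0537 and 0.0629 when preGM replicate 2 or 3 was left out. Their preGM values were 8.24, 4.35 and 3.67 CPM for Eng and 29.0, 7.96 and 9.25 CPM for Itga2b, so Itga2b in replicate 1 came close to the HSC range of 42.0, 31.1 and 38.1 CPM. The genes of the CD16/32 antigens, Fcgr3 and Fcgr2b, were higher in preGM although the sort excluded these proteins. Fcgr2b (chromosome 1, 170958617 to 170976547) had 0.855, 1.99 and 1.41 CPM in HSC and 119, 155 and 149 CPM in preGM (log2 6.64 ± 0.41 SE, adjusted p = 2.01e-08), and Fcgr3 1.04, 1.23 and 0.955 and 22.8, 42.9 and 42.5 CPM (log2 5.06 ± 0.41 SE, adjusted p = 2.49e-07). Kit, present on both sorted populations, had 103, 109.8 and 127 CPM in HSC and 99.4, 29.9 and 29.7 CPM in preGM, of which the first is close to the HSC range. Its fall of 1.10 (adjusted p = 0.028) was lost in 7 of 22 alternatives, at adjusted p up to 0.121.

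The partner genes of the fusion were read next. Kmt2a (chromosome 9, 44803355 to 44881296) had 92.9, 105 and 90.5 CPM in HSC and 39.8, 31.2 and 34.4 CPM in preGM, without overlap, and fell by log2 1.45 (adjusted p = 0.000137). Mllt1 (chromosome 17, 56892611 to 56935415) had 12.98, 17.0 and 15.8 and 14.7, 16.9 and 17.2 CPM, ranges that overlap (log2 0.09 ± 0.22 SE, adjusted p = 0.765, and -0.49, adjusted p = 0.074 with library size alone). A read of Kmt2a or Mllt1 may come from the endogenous gene or from the transgene. Col1a1, the integration locus, was too low to be tested.

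HOXA genes and other known targets of MLL fusions changed in both directions. Of 23 tested members, 5 rose and 8 fell, against 20.4% and 21.1% of all genes, with a median log2 difference of -0.43 against 0.00 over all genes, and in WT 2 rose and 15 fell with a median of -1.57. The list had 6 higher and 10 lower without preGM replicate 1, and 4 higher and 14 lower with library size alone. Hoxa9 (chromosome 6, 52223100 to 52231089), the HOX gene best known in MLL leukaemia, had 43.4, 50.1 and 49.2 CPM in HSC and 45.3, 36.7 and 36.1 CPM in preGM. These ranges overlap, and the log2 difference of -0.27 ± 0.21 (SE, adjusted p = 0.32) did not pass the test. In WT, Hoxa9 had 33.5, 26.9 and 22.9 CPM in HSC and 10.1, 8.75 and 9.14 CPM in preGM, where it fell by 1.57. The difference between these differences was 1.30 ± 0.30 (SE, adjusted p = 0.0244). This call was lost in 12 of 21 alternatives, with adjusted p of 0.00039 to 0.143 over all of them. Hoxa10 (chromosome 6, 52231197 to 52240854) fell from 26.5, 28.8 and 31.2 CPM to 9.56, 9.45 and 6.87 CPM with MLL-ENL (log2 -1.74 ± 0.28 SE, adjusted p = 0.000187). WT preGM held 0.179, 0.559 and 0.370 CPM of Hoxa10, below every MLL-ENL preGM library, and the interaction was 3.39 ± 0.44 (SE, adjusted p = 0.000428). Hoxa7, which shares 20.4% of its exon bases with another gene and is therefore uncertain, had 56.5, 57.8 and 56.4 and 52.9, 83.7 and 78.9 CPM (log2 0.34 ± 0.23 SE, adjusted p = 0.255, and 0.52, adjusted p = 0.0361 without replicate 1).

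Meis1 (chromosome 11, 18879817 to 19018985), which encodes the DNA-binding partner of HOXA9, had 216, 202 and 206 CPM in HSC and 185, 57.6 and 56.2 CPM in preGM. Replicate 1 is close to the HSC level and the other 2 preGM libraries are well below it. The log2 difference was -1.06 ± 0.36 (SE, adjusted p = 0.0272) and was lost in 7 of 22 alternatives, most clearly when only the longest transcript was counted (adjusted p = 0.842). Without replicate 1 it was -1.86, adjusted p = 4.75e-06. Meis1 in the WT preGM libraries was lower still, at 9.05, 8.94 and 10.2 CPM, and the interaction was 2.80 ± 0.52 (SE, adjusted p = 0.00616). Hoxa5, Hoxa3 and Pbx3 fell by 2.49, 3.02 and 2.78 (adjusted p = 4.89e-05, 0.000282 and 1.14e-06). Pbx3, another partner of HOX proteins, went from 30.4, 30.0 and 37.6 to 4.57, 3.96 and 5.74 CPM. Mef2c, a transcription factor gene of lymphoid and leukaemia cells, had 141, 158 and 158 and 121, 82.8 and 101 CPM (log2 -0.59 ± 0.24 SE, adjusted p = 0.0563).

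Among the targets that rose, Flt3 (chromosome 5, 147330741 to 147400489), a receptor tyrosine kinase of progenitors, went from 5.70, 3.90 and 3.50 CPM to 38.7, 19.7 and 17.4 CPM (log2 2.53 ± 0.32 SE, adjusted p = 1.85e-05). WT cells held 12.96, 15.1 and 15.3 CPM in HSC and 9.28, 8.80 and 9.48 CPM in preGM, the opposite order, and the interaction was 3.18 ± 0.43 (SE, adjusted p = 0.000626). Cdk6 (chromosome 5, 3341485 to 3531008), a G1 kinase, rose from 184, 188 and 179 to 625, 755 and 590.0 CPM (log2 1.84 ± 0.28 SE, adjusted p = 0.000125). Myc (chromosome 15, 61985391 to 61990374), a driver of growth and ribosome production, had 84.9, 86.8 and 90.2 CPM in HSC and 428, 149 and 165 CPM in preGM. All preGM values lie above all HSC values, and replicate 1 is far above the others. Its rise of 1.502 ± 0.38 (SE, adjusted p = 0.00535) fell short when libraries were scaled by size alone (adjusted p = 0.0953) and with limma (0.221 and 0.222).

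Genes of stem cell identity were lower in MLL-ENL preGM throughout. All 30 tested members fell (none rose), with a median log2 difference of -4.44, against 21.1% of all genes, and the same count held without replicate 1 and with library size alone. In WT, 29 of the 30 fell, with a median of -4.91. The direction of this list is not independent of the sort, which separated stem cells from precursors by their antigens. Mecom (chromosome 3, 29951296 to 30548008), a zinc finger factor needed for stem cell maintenance, had 116, 99.6 and 112 CPM in HSC and 8.79, 5.30 and 6.68 CPM in preGM. The fall of 3.98 (adjusted p = 2.99e-08) left more Mecom than in WT preGM, at 0.567, 0.652 and 0.398 CPM, and the interaction was 2.25 ± 0.37 (SE, adjusted p = 0.0025). On limma's scale of log2(RPKM + 1) that interaction turned negative (-0.83, adjusted p = 0.0683). Hlf (chromosome 11, 90336536 to 90390895), a transcription factor of quiescent stem cells, fell from 112, 143 and 133 to 6.66, 5.59 and 5.22 CPM (log2 -4.47 ± 0.25 SE, adjusted p = 1.06e-08). Mllt3, a relative of ENL that maintains stem cells, fell from 118, 125 and 113 to 8.39, 7.93 and 7.51 CPM (log2 -3.90 ± 0.24 SE, adjusted p = 2.01e-08). Gata2, Lmo2, Tal1 and Erg, transcription factors of stem cells that progenitors also use, fell by 1.06, 1.05, 1.49 and 1.73 (adjusted p = 0.000973, 0.00602, 0.00123 and 4.79e-05). Gata2 still had 46.2, 42.5 and 47.2 CPM in preGM, against 95.2, 94.9 and 93.9 CPM in HSC.

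Surface and signalling genes of stem cells include some of the larger falls. Esam, an endothelial-type adhesion molecule, went from 143, 129.6 and 131 CPM to 1.64, 0.845 and 1.49 CPM (log2 -6.65 ± 0.31 SE, adjusted p = 7.74e-09), and Sult1a1, a sulfotransferase, from 60.7, 78.5 and 70.7 CPM to 0.282, 0.130 and 0.248 CPM (log2 -8.23 ± 0.53 SE, adjusted p = 2.5e-08). Procr, the endothelial protein C receptor used to enrich stem cells, fell from 55.0, 65.8 and 40.6 CPM to 3.91, 5.85 and 7.23 CPM (log2 -3.25 ± 0.28 SE, adjusted p = 3.77e-07). Fgd5, a stem cell reporter gene, fell from 14.0, 14.2 and 14.8 to 0.282, 0.162 and 0.193 CPM with MLL-ENL, against 11.6, 19.9 and 15.9 to 0.0299, 0.0466 and 0 CPM in WT, where 2 counts remained (interaction 3.21 ± 0.75 SE, adjusted p = 0.0249, lost in 9 of 21 alternatives). The angiopoietin receptor genes Tie1 and Tek went from 67.8, 64.0 and 52.6 to 2.35, 2.37 and 2.43 CPM and from 14.2, 14.9 and 14.7 to 2.95, 1.33 and 0.801 CPM, falls of 4.69 and 3.08 (adjusted p = 9.04e-09 and 0.000142). Cdkn1c, the CDK inhibitor p57 of quiescent cells, fell from 27.6, 21.6 and 19.9 CPM to 0.452, 0.715 and 0.331 CPM (log2 -5.54 ± 0.42 SE, adjusted p = 1.15e-07).

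**Figure D2:**
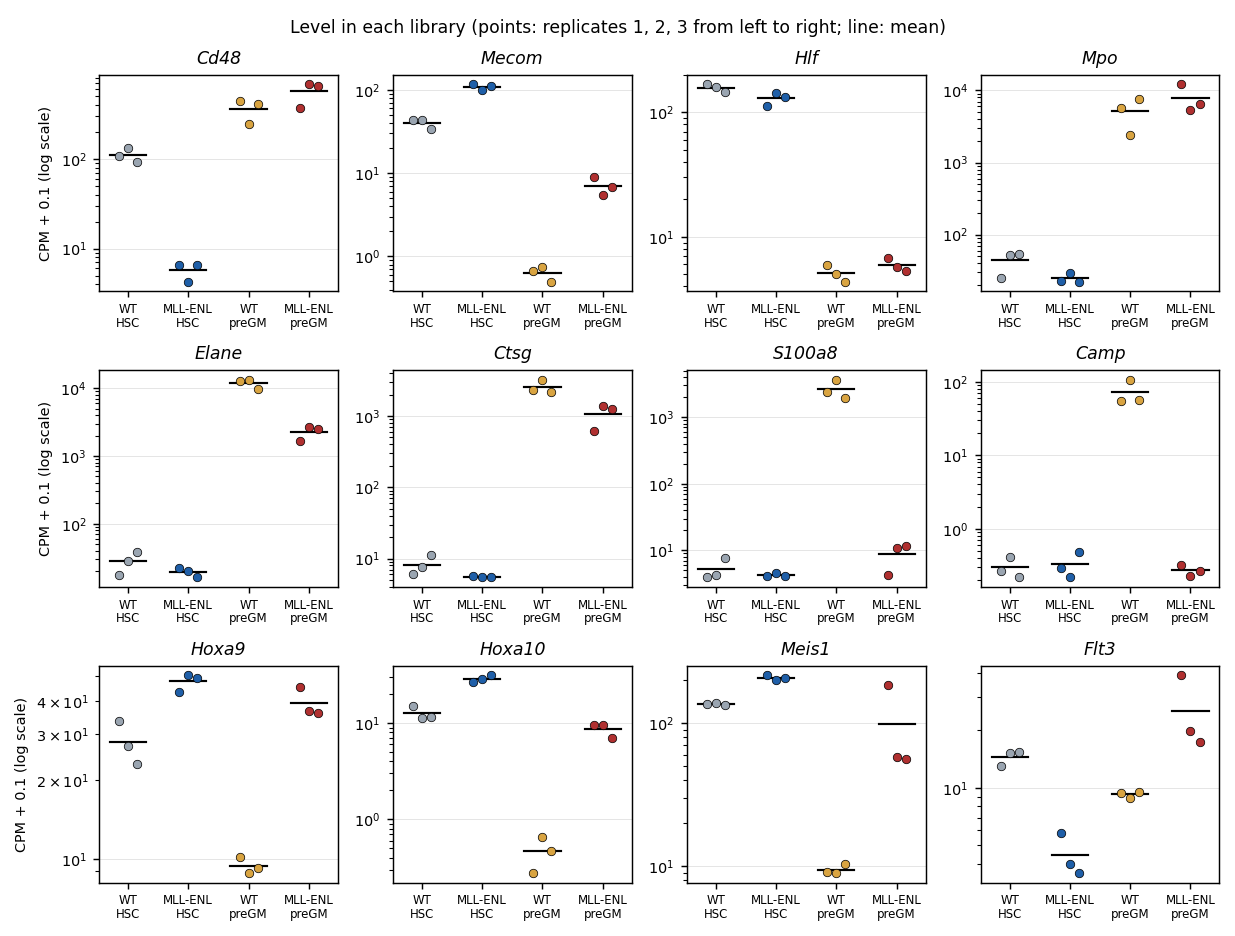
CPM + 0.1 on a log axis for 12 genes in each of the 12 libraries, with replicates 1, 2 and 3 from left to right and a line at the group mean (n = 3). Cd48, Mpo, Elane and Ctsg are high in preGM, Mecom and Hlf are high in HSC, and S100a8 and Camp are high in WT preGM only.

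Primary granule genes rose in MLL-ENL preGM. Of 16 tested members, 15 rose and none fell, against 20.4% and 21.1% of all genes. The median log2 difference was 4.88 (16 higher and 0 lower in WT, median 4.10). With library size alone 13 rose, and without replicate 1, 15 rose. The 4 enzyme genes at the centre of this group have the following bases before their RefSeq start (RefSeq, GRCm38.p6, 5′ to 3′ on the gene's strand). All 4 rose, by log2 2.73 (Prtn3) to 8.33 (Mpo). Among the preGM libraries, replicate 1 was the highest for Mpo and the lowest for Elane, Prtn3 and Ctsg. Capitals mark GAGGAAG, the core of a site for the ETS factor PU.1. Each stretch holds up to 250 bases and is cut short where another annotated transcript begins.
Mpo, chr11:87793534-87793580, plus strand: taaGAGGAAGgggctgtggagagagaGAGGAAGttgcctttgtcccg
Elane, chr10:79886062-79886246, plus strand: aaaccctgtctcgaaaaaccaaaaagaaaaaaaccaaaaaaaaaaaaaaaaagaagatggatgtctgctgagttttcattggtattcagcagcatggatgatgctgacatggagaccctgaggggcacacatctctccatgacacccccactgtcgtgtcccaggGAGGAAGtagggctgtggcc
Prtn3, chr10:79879417-79879613, plus strand: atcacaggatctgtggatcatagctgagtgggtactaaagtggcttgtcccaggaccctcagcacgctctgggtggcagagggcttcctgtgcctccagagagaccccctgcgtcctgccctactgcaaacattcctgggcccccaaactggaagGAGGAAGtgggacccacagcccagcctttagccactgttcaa
Ctsg, chr14:56102575-56102824, minus strand: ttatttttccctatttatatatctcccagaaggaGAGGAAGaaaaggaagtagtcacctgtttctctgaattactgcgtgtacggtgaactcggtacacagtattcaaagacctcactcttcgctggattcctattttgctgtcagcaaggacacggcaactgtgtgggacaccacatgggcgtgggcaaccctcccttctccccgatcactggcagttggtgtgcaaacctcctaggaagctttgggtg
GAGGAAG on either strand lies within 250 bases before the start in 10.6% of 32851 RefSeq promoters, in 7 of 14 primary granule promoters with an entry, in 5 of 17 secondary or tertiary granule promoters and in 3 of 24 stem cell promoters. TGTGGT, of the RUNX site, is found in 14.0% of all promoters, in 6 of the 14, in 3 of the 17 and in 0 of the 24. The letters TTGCNNAA, of the C/EBP site, are found in 9.56% of all promoters, in 1 of the 14, in 9 of the 17 and in 5 of the 24. These patterns are 3 of 10 searched and were picked after the counts were seen, patterns can overlap, and a match is a description of letters, not of a bound site.

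Mpo (chromosome 11, 87793581 to 87804413), which encodes myeloperoxidase, had 23.0, 28.9 and 22.2 CPM in HSC and 12104, 5350.3 and 6411 CPM in preGM. Every preGM library lies far above every HSC library, and the log2 difference was 8.33 ± 0.60 (SE, adjusted p = 6.85e-08). Mpo shares 14.95% of its exon bases with another gene, so part of its reads may be of that gene. Elane (chromosome 10, 79886247 to 79888215), neutrophil elastase, went from 22.2, 19.7 and 16.2 CPM to 1681, 2630.0 and 2510.3 CPM (log2 6.88 ± 0.43 SE, adjusted p = 2.01e-08). WT preGM held more, 12713, 13246 and 9808 CPM, but the interaction of -1.86 ± 0.47 (SE, adjusted p = 0.0422) is close to the threshold, with 0.000408 to 0.127 over the alternatives. Ctsg (chromosome 14, 56099881 to 56102574), cathepsin G, rose from 5.51, 5.37 and 5.38 to 624, 1374 and 1241 CPM (log2 7.64 ± 0.44 SE, adjusted p = 1.31e-08). Prtn3 (chromosome 10, 79874476 to 79883174), proteinase 3, was already at 195, 198 and 172 CPM in HSC and reached 867, 1483 and 1411 CPM (log2 2.73 ± 0.31 SE, adjusted p = 6.51e-06). Ms4a3, a marker of granulocyte-monocyte precursors, rose from 12.2, 11.7 and 13.2 CPM to 824, 1817 and 1674 CPM (log2 6.86 ± 0.42 SE, adjusted p = 1.72e-08), and Plac8 from 60.1, 54.5 and 74.8 to 1409.7, 3456 and 3521 CPM (log2 5.47 ± 0.45 SE, adjusted p = 2.63e-07). Calr, a chaperone for myeloperoxidase folding, went from 321, 319.6 and 314 to 1433, 1439 and 1468 CPM (log2 2.19 ± 0.28 SE, adjusted p = 2.81e-05). Srgn, the proteoglycan core of granules, is the member that did not pass, with 992, 972 and 1034 CPM in HSC and 886, 2039 and 1890.2 CPM in preGM. Replicate 1 lies below HSC and the others lie above (log2 0.68 ± 0.32 SE, adjusted p = 0.0994), and without replicate 1 the difference was 0.98, adjusted p = 0.00257.

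Genes of the secondary and tertiary granules rose in fewer cases than in WT. Of 18 tested members 9 rose and 2 fell, against 20.4% and 21.1% of all genes, with a median of 1.25, whereas in WT 17 rose and none fell, with a median of 8.42. Of the 18 members, 11 passed the test of the difference between genotypes with a negative interaction and 0 with a positive one. Of all genes, 2.06% passed it with a negative interaction and 1.08% with a positive one. Without MLL-ENL preGM replicate 1, 10 rose and 2 fell, and 12 rose without both libraries that stand apart. With library size alone or without MLL-ENL HSC replicate 1, 6 rose, and without MLL-ENL preGM replicate 2 or 3, 7 rose. In a fit on the MLL-ENL libraries alone, 13 members were tested, of which 5 rose and 2 fell. S100a8 (chromosome 3, 90668978 to 90670035), an alarmin abundant in neutrophils, had 4.02, 4.42 and 3.996 CPM in MLL-ENL HSC and 4.14, 10.6 and 11.4 CPM in MLL-ENL preGM. In WT preGM it had 2422, 3619 and 1946 CPM, so all 3 WT preGM libraries lie far above every MLL-ENL preGM library. The interaction was -7.94 ± 0.61 (SE, adjusted p = 2.42e-06), and the difference within MLL-ENL, 1.07 ± 0.39 (SE, adjusted p = 0.0388), was lost in 10 of 22 alternatives. Its partner S100a9 had 1.30, 1.47 and 0.955 and 1.07, 2.21 and 2.95 CPM with MLL-ENL and 806, 1142 and 665 CPM in WT preGM (interaction -8.21 ± 0.56 SE, adjusted p = 2.11e-06). Camp (chromosome 9, 109847379 to 109849617), the cathelicidin antimicrobial peptide, had 0.190, 0.119 and 0.389 CPM in HSC and 0.226, 0.130 and 0.166 CPM in preGM with MLL-ENL, against 54.2, 106 and 55.9 CPM in WT preGM (interaction -8.76 ± 0.76 SE, adjusted p = 9.64e-06). Ltf (chromosome 9, 111019271 to 111042767), lactoferrin, fell with MLL-ENL from 2.25, 1.99 and 2.58 CPM to 0.169, 0.162 and 0.110 CPM (log2 -3.90 ± 0.54 SE, adjusted p = 5.32e-05) and rose in WT to 30.6, 16.7 and 57.5 CPM (interaction -9.63 ± 0.74 SE, adjusted p = 2.42e-06). Ngp, the neutrophilic granule protein, had 0.922, 1.85 and 2.37 CPM in MLL-ENL preGM and 640.1, 375 and 637 CPM in WT preGM (interaction -7.61 ± 0.56 SE, adjusted p = 2.42e-06). Some members did rise with MLL-ENL. Lcn2, lipocalin 2, went from 0.601, 0.955 and 0.248 to 11.02, 19.6 and 27.8 CPM (log2 5.02 ± 0.46 SE, adjusted p = 8.84e-07), still below the 258, 383 and 215 CPM of WT preGM (interaction -4.54 ± 0.67 SE, adjusted p = 0.00121). Cebpe, the factor that drives secondary granule genes, rose to 5.87, 8.19 and 8.12 CPM from at most 0.728 CPM (log2 4.74 ± 0.67 SE, adjusted p = 6.37e-05), and Mmp8, neutrophil collagenase, to 13.7, 7.38 and 8.50 CPM from at most 0.190 CPM (log2 6.501 ± 0.56 SE, adjusted p = 4.25e-07). For neither of these did the interaction pass (adjusted p = 0.108 and 0.282).

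Monocyte and macrophage genes were mostly higher, with 16 of 19 members up and 1 down, against 20.4% and 21.1% of all genes. Their median was 3.17 (WT 19 higher and 0 lower, median 4.44). With library size alone 13 rose, and without preGM replicate 1, 14 rose and 0 fell. Ccr2 (chromosome 9, 124101950 to 124113557), the chemokine receptor of inflammatory monocytes, rose from 0.981, 1.11 and 0.389 CPM to 292, 143 and 137 CPM (log2 7.85 ± 0.49 SE, adjusted p = 2.01e-08). Ly86, the partner of a Toll-like receptor homologue, rose from 0.348, 0.358 and 0.106 to 27.3, 67.2 and 64.8 CPM (log2 7.59 ± 0.56 SE, adjusted p = 8.35e-08), and F13a1, coagulation factor XIII, from at most 0.0950 CPM to 21.3, 7.67 and 8.89 CPM (log2 7.65 ± 0.59 SE, adjusted p = 1.4e-07). Irf8, a monocyte fate factor, rose from 5.54, 5.13 and 3.93 CPM to 29.7, 18.3 and 16.1 CPM (log2 2.14 ± 0.37 SE, adjusted p = 0.000364). Of the 19 members, 6 passed with a negative interaction and 0 with a positive one, against 2.06% and 1.08% of all genes. Ly6c2, a monocyte surface antigen, reached 40.7, 95.6 and 90.1 CPM against 832, 1176 and 748 in WT preGM (interaction -3.25 ± 0.50 SE, adjusted p = 0.00161), and Lgals3, galectin 3, 9.07, 19.2 and 16.6 against 228, 287 and 199 CPM (interaction -4.98 ± 0.63 SE, adjusted p = 0.000345). Lyz2, lysozyme, had 198, 236 and 208 CPM in HSC and 64.4, 159 and 135 CPM in preGM with MLL-ENL. Its fall of 0.84 (adjusted p = 0.0489) was lost in 14 of 22 alternatives. In WT, Lyz2 went the other way, to 1262, 682 and 1108 CPM, and the interaction of -3.43 ± 0.47 (SE, adjusted p = 0.000687) had adjusted p of 3.29e-11 to 0.00402 over the alternatives.

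Genes of mast cells, basophils and eosinophils, which share precursors with granulocytes, also rose. Of 13 members, 10 rose and 1 fell, against 20.4% and 21.1% of all genes, with a median of 5.33 (WT 12 higher and 0 lower). Without preGM replicate 1, 10 rose and 0 fell. In a fit on the MLL-ENL libraries alone, 9 members were tested, of which 8 rose and 1 fell. Hdc, histidine decarboxylase, went from 0.696, 0.876 and 0.813 CPM to 107, 43.2 and 54.3 CPM (log2 6.42 ± 0.49 SE, adjusted p = 1.27e-07), and Fcer1a, the alpha chain of the IgE receptor, from 0.253, 0.318 and 0.141 to 18.8, 19.7 and 23.2 CPM (log2 6.42 ± 0.40 SE, adjusted p = 2.01e-08). Cpa3, mast cell carboxypeptidase, rose from 8.23, 1.47 and 4.14 to 78.7, 129.8 and 149.6 CPM (log2 4.68 ± 0.51 SE, adjusted p = 4.55e-06), and Mcpt8, a basophil protease, from 2.18, 1.67 and 1.24 to 32.7, 88.7 and 85.1 CPM (log2 5.33 ± 0.50 SE, adjusted p = 1.08e-06). Prg2, the eosinophil major basic protein, had 0, 0.0796 and 0.0707 CPM in HSC and 0.188, 0.0975 and 0.0828 CPM in preGM. The summed level of the list lay between 8.40 and 16.5 CPM in HSC and between 304 and 347 CPM in preGM. The part of such cells in other differences was not tested.

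Among 17 myeloid transcription factors 2 rose and 6 fell (median -0.33), against 20.4% and 21.1% of all genes, and WT had 7 higher and 4 lower. Without HSC replicate 3 the count was 2 higher and 2 lower, without preGM replicate 3 it was 2 higher and 3 lower, and without preGM replicate 1 it was 2 higher and 5 lower. Both that rose set the granulocyte-monocyte fate. Cebpa (chromosome 7, 35119293 to 35121928) went from 1.08, 0.677 and 1.66 CPM to 22.05, 38.9 and 39.3 CPM (log2 4.86 ± 0.42 SE, adjusted p = 4.11e-07), and Gfi1 (chromosome 5, 107716657 to 107726036) from 0.823, 0.557 and 0.495 to 11.8, 17.7 and 19.7 CPM (log2 4.69 ± 0.44 SE, adjusted p = 1.04e-06). Spi1, which encodes PU.1, had 16.3, 13.9 and 14.8 CPM in HSC and 7.02, 14.0 and 13.03 CPM in preGM, ranges that overlap (log2 -0.41 ± 0.31 SE, adjusted p = 0.308). In WT it rose to 27.6, 48.3 and 22.2 CPM, and the interaction was -2.33 ± 0.45 (SE, adjusted p = 0.00772). Id2 (chromosome 12, 25093799 to 25097140), an inhibitor of helix-loop-helix factors, fell from 77.8, 66.1 and 80.2 CPM to 10.2, 20.01 and 20.3 CPM (log2 -2.15 ± 0.29 SE, adjusted p = 3.66e-05) and rose in WT from 25.8, 28.8 and 16.9 to 75.1, 71.7 and 91.4 CPM, an interaction of -3.89 ± 0.40 (SE, adjusted p = 5.32e-05). Runx1 fell by 0.79 (adjusted p = 0.0137, 0.0561 without HSC replicate 3).

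Cytokine receptor genes changed in both directions, with 6 of 20 higher and 3 lower (median -0.03), against 20.4% and 21.1% of all genes. Without HSC replicate 2 the count was 3 higher and 3 lower, without preGM replicate 1 it was 4 higher and 4 lower, and with library size alone 3 higher and 6 lower. Csf2rb, the common beta chain for IL3, GM-CSF and IL5, rose from 23.0, 20.4 and 23.6 CPM to 181, 90.0 and 97.4 CPM (log2 2.46 ± 0.28 SE, adjusted p = 7.12e-06). Cxcr2, a neutrophil chemokine receptor, went from 4.56, 2.75 and 4.81 to 14.96, 27.4 and 23.4 CPM (log2 2.44 ± 0.31 SE, adjusted p = 2.4e-05), and Il1rl1, the IL33 receptor, from 0.222, 0.517 and 0.106 to 11.2, 5.49 and 8.67 CPM (log2 4.92 ± 0.65 SE, adjusted p = 3.13e-05). Tgfbr2 and Tgfbr3, receptors for TGF-beta, fell by 1.40 and 3.09 (adjusted p = 0.000362 and 5.78e-06). Csf3r, the G-CSF receptor, had 18.5, 18.7 and 18.4 CPM in HSC and 67.2, 20.2 and 21.3 CPM in preGM. Replicate 1 lies far above HSC and the others just above, and without replicate 1 the difference was 0.17, adjusted p = 0.441. Cd34, an antigen of progenitors, had 148, 159 and 169.6 and 343, 178 and 206 CPM (log2 0.61 ± 0.27 SE, adjusted p = 0.0858), whereas it fell in WT from 263, 276 and 213 to 37.0, 36.3 and 51.0 CPM (interaction 3.20 ± 0.39 SE, adjusted p = 0.000264).

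Megakaryocyte and erythroid genes were mostly lower, with 13 of 22 members down and 3 up, against 21.1% and 20.4% of all genes. Their median was -1.55 (WT 3 higher and 14 lower), and without preGM replicate 1 the count was 3 higher and 10 lower of 23. Vwf, von Willebrand factor, fell from 103, 78.7 and 74.3 CPM to 3.29, 2.92 and 2.84 CPM (log2 -4.82 ± 0.32 SE, adjusted p = 2.98e-08), and Gp9, a platelet glycoprotein, from 50.2, 49.6 and 46.7 to 2.97, 5.91 and 6.02 CPM (log2 -3.30 ± 0.29 SE, adjusted p = 5.12e-07). Gata1 (chromosome X, 7959260 to 7978071), the erythroid and mast cell factor, went up from 14.1, 14.9 and 12.6 CPM to 50.6, 48.7 and 48.3 CPM (log2 1.83 ± 0.39 SE, adjusted p = 0.00171), as did Car1 to 17.7, 39.1 and 39.4 CPM and the transferrin receptor gene Tfrc from 18.0, 9.75 and 22.4 to 221, 142 and 137 CPM (log2 6.87 ± 0.72 SE, adjusted p = 3.26e-06, and 3.32 ± 0.32 SE, adjusted p = 1.28e-06). Lymphoid genes had 4 of 10 members higher and none lower, against 20.4% and 21.1% of all genes (median 0.28, -0.32 with library size alone). The count was 5 higher and 0 lower without preGM replicate 1 (median 0.47). Dntt (chromosome 19, 41029275 to 41059525), the polymerase of lymphoid V(D)J joining, had no count in any MLL-ENL HSC library and 2.05, 5.04 and 4.44 CPM in preGM, at least 36.0-fold higher than the floor of 3 counts per library in HSC. In WT the order was reversed, 4.08, 2.31 and 3.75 CPM in HSC and 0.0597, 0.233 and 0.142 CPM in preGM. Satb1, a chromatin organiser of lymphoid cells, rose from 1.01, 0.318 and 1.45 to 16.0, 18.0 and 16.9 CPM (log2 4.17 ± 0.43 SE, adjusted p = 2.91e-06). Among MHC class II and dendritic cell genes 4 of 14 rose and 2 fell, against 20.4% and 21.1% of all genes. Their median was -0.09 (WT 9 higher and 2 lower). Without preGM replicate 1 the count was 3 higher and 2 lower, and without preGM replicate 3 it was 2 higher and 2 lower. Cd74, the invariant chain, had 42.0, 61.7 and 37.7 CPM in HSC and 29.3, 39.0 and 59.4 CPM in preGM (log2 -0.15 ± 0.40 SE, adjusted p = 0.789), against 279, 99.6 and 402 CPM in WT preGM (interaction -5.66 ± 0.61 SE, adjusted p = 6.21e-05). Stromal and endothelial markers had 1 of 9 higher and 6 lower, against 20.4% and 21.1% of all genes. The lower members include Eng, the CD105 gene of the preGM gate. Their median was -2.08, and the count was 1 higher and 5 lower of 10 without preGM replicate 1. Col1a2 was at 4.53, 8.76 and 6.97 CPM in HSC and 1.52, 1.69 and 1.96 CPM in preGM (log2 -1.97 ± 0.46 SE, adjusted p = 0.00308), and the part of such cells in the stem cell genes was not tested.

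Genes of growth rose as groups. Ribosome biogenesis had 24 of 24 members higher and none lower, with a median of 1.59, against 20.4% of all genes, and in WT 10 higher and 0 lower, with a median of 0.68. Without replicate 1 the count was again 24 and the median 1.38, and with library size alone 15 rose with a median of 1.08. The summed level of the list averaged 4520 CPM in MLL-ENL HSC and 7307 CPM in WT HSC. In preGM it averaged 16438 CPM with MLL-ENL and 15191 CPM in WT. Npm1 (chromosome 11, 33152287 to 33163206), the nucleolar chaperone nucleophosmin, had 1923, 2029 and 1994 CPM in HSC and 6108, 10330.0 and 9815 CPM in preGM, where its mean of 8751 CPM was the highest of all genes, although Mpo was higher in replicate 1 (log2 2.14 ± 0.33 SE, adjusted p = 0.000132). Ncl, nucleolin, went from 491, 606 and 638 to 1959.6, 1658 and 1834 CPM (log2 1.65 ± 0.26 SE, adjusted p = 0.000161), and Nolc1, a chaperone of small nucleolar particles, from 63.2, 66.4 and 71.4 to 456, 236 and 293 CPM (log2 2.29 ± 0.27 SE, adjusted p = 1.02e-05). Srm, spermidine synthase, rose from 36.6, 33.1 and 29.3 to 98.0, 194 and 202 CPM (log2 2.32 ± 0.32 SE, adjusted p = 4.36e-05). Nat10, Rrp12 and Cad, for RNA acetylation, rRNA export and pyrimidine synthesis, rose more than in WT, with interactions of 2.21 ± 0.52 (SE, adjusted p = 0.0259), 1.96 ± 0.47 (SE, adjusted p = 0.0303) and 1.36 ± 0.32 (SE, adjusted p = 0.0255). These 3 interactions were lost in 10, 11 and 8 of 21 alternatives, with adjusted p up to 0.121, 0.101 and 0.0867. For Nat10 and Rrp12 replicate 1 carries the highest value, with 152, 44.9 and 46.3 and 82.0, 30.7 and 30.2 CPM.

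DNA replication genes rose too, 22 of 27 with none lower, against 20.4% and 21.1% of all genes. Their median was 1.09 (WT 4 higher and 0 lower, median 0.13). No member of this list passed the interaction test, so the difference from WT is not established gene by gene. Without replicate 1 the count was 19 and the median 0.96, and with library size alone 6 rose with a median of 0.48. The summed level of the list averaged 2566 CPM in MLL-ENL HSC and 3824 CPM in WT HSC. In preGM it averaged 6190 CPM with MLL-ENL and 4705 CPM in WT. Rrm2 (chromosome 12, 24708241 to 24714146), the ribonucleotide reductase subunit made in S phase, had 113, 130.3 and 120.1 CPM in HSC and 933, 807 and 811 CPM in preGM (log2 2.81 ± 0.40 SE, adjusted p = 6.87e-05). Mcm5, a subunit of the replicative helicase, had 145, 148 and 134 and 749, 238 and 330.2 CPM, and Pcna, the polymerase clamp, 176, 166 and 151 and 212, 408 and 351 CPM. Both exceed HSC in every preGM library, but replicate 1 is the highest for Mcm5 and the lowest for Pcna (log2 1.63 ± 0.38 SE, adjusted p = 0.00303, and 0.98 ± 0.28 SE, adjusted p = 0.011). With library size alone neither passed (adjusted p = 0.0583 and 0.284), and Pcna also missed the threshold without preGM replicate 2 (0.0524) or HSC replicate 3 (0.0514). Tyms, thymidylate synthase, went from 211, 221 and 200.1 to 298, 572 and 521 CPM (log2 1.14 ± 0.27 SE, adjusted p = 0.0034). Cdc6, which loads the helicase, rose by 2.09 ± 0.41 (SE, adjusted p = 0.000881).

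Of 24 mitosis genes 12 rose and none fell, against 20.4% and 21.1% of all genes. Their median was 0.89 (WT 7 higher and 0 lower, median 0.37). Without preGM replicate 1 the count was 11 higher and 0 lower with a median of 0.49, and with library size alone it was 5 higher and 2 lower (median 0.33). The summed level of the list averaged 2187 CPM in MLL-ENL HSC and 3023 CPM in WT HSC. In preGM it averaged 4283 CPM with MLL-ENL and 4819 CPM in WT. Ccnb1, cyclin B1, rose from 75.2, 73.6 and 81.8 CPM to 411, 261 and 284 CPM (log2 2.05 ± 0.37 SE, adjusted p = 0.000526), and Cdk1, its kinase, from 125, 158 and 134 to 282, 536 and 493 CPM (log2 1.65 ± 0.31 SE, adjusted p = 0.000624). Aurka, Aurora kinase A, rose from 43.8, 52.6 and 46.8 to 182, 179 and 186 CPM (log2 1.93 ± 0.37 SE, adjusted p = 0.000802). Mki67, the usual proliferation marker, had 138, 208 and 160.5 CPM in HSC and 148, 134 and 147 CPM in preGM, with overlap (log2 -0.24 ± 0.25 SE, adjusted p = 0.456). Cyclin D and CDK inhibitor genes had 1 of 14 higher and 6 lower (median -0.54), against 20.4% and 21.1% of all genes. The count was 2 higher and 6 lower without preGM replicate 1 and 0 higher and 9 lower with library size alone. Ccnd1, cyclin D1, fell from 26.8, 31.8 and 34.8 CPM to 2.46, 3.28 and 2.18 CPM (log2 -3.56 ± 0.26 SE, adjusted p = 7.22e-08), and Cdkn1b, the inhibitor p27, from 35.6, 31.5 and 41.7 to 12.3, 20.4 and 14.6 CPM (log2 -1.202 ± 0.23 SE, adjusted p = 0.000716). Rb1, the retinoblastoma gene, fell by 1.51 (adjusted p = 7.78e-05), a call lost when only the longest transcript was counted (adjusted p = 0.405). Btg2, an antiproliferative gene, fell by 1.66 with MLL-ENL, against a log2 difference of 0.28 in WT (interaction -1.94 ± 0.31 SE, adjusted p = 0.00213).

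Energy metabolism moved the same way. Respiratory chain and citric acid cycle genes had 20 of 24 members higher and none lower, against 20.4% and 21.1% of all genes. Their median was 1.27 (WT 11 higher and 0 lower). Library size alone left 5 (median 0.70), and 18 rose without replicate 1. The summed level of the list averaged 6403 CPM in MLL-ENL HSC and 8565 CPM in WT HSC. In preGM it averaged 16122 CPM with MLL-ENL and 18469 CPM in WT. Cycs, cytochrome c, rose from 152, 149.8 and 162 CPM to 436, 1197 and 1098 CPM (log2 2.55 ± 0.37 SE, adjusted p = 7.77e-05), and Idh3a, of the citric acid cycle, from 117, 122 and 119.9 to 669, 587 and 590.4 CPM (log2 2.36 ± 0.44 SE, adjusted p = 0.000618). Mdh2, malate dehydrogenase, went from 582, 624 and 529.8 to 1789, 2951 and 2805 CPM (log2 2.12 ± 0.41 SE, adjusted p = 0.00079). In contrast, 6 of 10 mitochondrial and nuclear-retained RNAs used as signs of RNA quality fell and none rose, against 21.1% and 20.4% of all genes. Of these, mt-Co1 had 2822, 3744 and 2697 CPM in HSC and 789.6, 1101 and 798 CPM in preGM (log2 -1.78 ± 0.28 SE, adjusted p = 0.000158). Malat1, a nuclear long RNA, had 1776, 2416 and 2138 and 608, 962 and 991 CPM (log2 -1.31 ± 0.33 SE, adjusted p = 0.0057). The part of RNA quality in the nuclear-encoded genes was not tested.

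Glycolysis and pentose phosphate genes had 13 of 19 higher and none lower, against 20.4% and 21.1% of all genes. Their median was 1.52 (WT 15 higher and 1 lower), and the count was 8 higher and 1 lower with library size alone. Eno1, enolase, rose from 289, 362 and 313 CPM to 1887, 1942 and 2052 CPM (log2 2.61 ± 0.49 SE, adjusted p = 0.000679), and Gapdh from 349, 366 and 338 to 996, 1601 and 1522 CPM (log2 1.97 ± 0.31 SE, adjusted p = 0.000137). G6pdx, the entry enzyme of the pentose phosphate pathway, rose from 39.4, 44.5 and 41.1 to 208, 125 and 144 CPM (log2 1.93 ± 0.26 SE, adjusted p = 3.97e-05). Tkt, transketolase, was 403, 406 and 415 CPM in HSC and 529, 433 and 544 CPM in preGM (log2 0.30 ± 0.32 SE, adjusted p = 0.48), and rose in WT (interaction -1.91 ± 0.46 SE, adjusted p = 0.0312, lost in 14 of 21 alternatives). Cholesterol and fatty acid genes had 16 of 23 higher and 1 lower (median 1.08), against 20.4% and 21.1% of all genes. Without replicate 1, 12 rose and 1 fell (median 0.71), and with library size alone 3 rose and 1 fell. Fdps, farnesyl diphosphate synthase, went from 72.1, 79.2 and 63.1 CPM to 226, 385 and 380.4 CPM (log2 2.21 ± 0.36 SE, adjusted p = 0.000195), and Scd2, a desaturase, from 100.02, 90.8 and 100.3 to 402, 252 and 267 CPM (log2 1.66 ± 0.25 SE, adjusted p = 8.9e-05). Srebf2, the transcription factor of cholesterol genes, fell from 28.2, 34.2 and 31.3 to 19.1, 15.9 and 15.2 CPM (log2 -0.90 ± 0.20 SE, adjusted p = 0.00258).

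Of 18 immediate early and stress genes 3 rose and 10 fell (median -1.59), against 20.4% and 21.1% of all genes. WT had 8 higher and 2 lower (median 0.90), and 6 members passed with a negative interaction, against 2.06% of all genes. Without preGM replicate 1 the count was 3 higher and 9 lower of 17. Egr1 (chromosome 18, 34859823 to 34864984), an immediate early factor that keeps stem cells in place, fell from 78.3, 54.9 and 79.1 CPM to 3.74, 2.18 and 2.84 CPM (log2 -4.59 ± 0.30 SE, adjusted p = 2.5e-08). Ier3, Klf6 and Zfp36 fell by 1.64, 1.89 and 1.44 (adjusted p = 0.000116, 0.000151 and 0.00127). The 3 that rose, Atf4, Asns and Chac1, belong to the response to amino acid shortage, with Atf4 at 61.3, 58.4 and 62.3 CPM in HSC and 172, 216 and 209 CPM in preGM (log2 1.71 ± 0.25 SE, adjusted p = 7.21e-05), and Asns, asparagine synthetase, at 68.5, 82.8 and 96.5 and 406, 301 and 319 CPM (log2 2.05 ± 0.41 SE, adjusted p = 0.00101). Of 17 genes of cytokine feedback, 11 fell and none rose (median -1.15), against 21.1% and 20.4% of all genes. WT had 1 higher and 10 lower. Without preGM replicate 1, 12 fell with MLL-ENL. Socs2 went down from 59.7, 63.6 and 65.4 CPM to 13.8, 15.6 and 14.7 CPM (log2 -2.10 ± 0.20 SE, adjusted p = 1.48e-06). Pim2, a STAT5-induced kinase, fell from 105, 127 and 94.1 to 24.97, 10.8 and 11.9 CPM (log2 -2.77 ± 0.32 SE, adjusted p = 8.15e-06). Among interferon and MHC class I genes 12 of 22 fell and 2 rose (median -1.05), against 21.1% and 20.4% of all genes. WT had 1 higher and 13 lower. With MLL-ENL the count was 3 higher and 14 lower of 24 without preGM replicate 1. Isg15 fell from 13.5, 14.1 and 11.2 to 0.640, 1.62 and 0.966 CPM (log2 -3.60 ± 0.42 SE, adjusted p = 9e-06), Gbp2, a guanylate-binding protein, from 19.97, 26.6 and 22.03 to 4.42, 1.88 and 2.37 CPM (log2 -2.97 ± 0.32 SE, adjusted p = 4.36e-06), and the class I gene H2-K1, which has near-identical copies, by 0.96 (adjusted p = 0.00508).

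Targets of p53 had 3 higher and 5 lower of 20 (median -0.56), against 20.4% and 21.1% of all genes. Without HSC replicate 1, 2 or 3 the count was 2 higher and 3 lower, 3 higher and 3 lower or 1 higher and 4 lower, and without preGM replicate 1 it was 4 higher and 6 lower. Pmaip1, the BH3-only protein NOXA, rose from 0.855, 0.478 and 0.743 CPM to 31.1, 10.8 and 11.04 CPM (log2 4.66 ± 0.51 SE, adjusted p = 5.9e-06). Of 13 BCL2 family genes 2 rose and 3 fell (median 0.01), against 20.4% and 21.1% of all genes. The count was 2 higher and 1 lower without HSC replicate 1 or 3 and 3 higher and 3 lower without preGM replicate 1. Bid rose from 23.1, 22.6 and 26.2 to 149, 136 and 135 CPM (log2 2.55 ± 0.38 SE, adjusted p = 0.000101), and Mcl1, which keeps stem and progenitor cells alive, went from 77.0, 73.0 and 77.8 to 36.4, 50.1 and 47.6 CPM (log2 -0.76 ± 0.25 SE, adjusted p = 0.021, and 0.0611 and 0.0635 without HSC replicate 1 or 3). Genes of the MLL and elongation complexes had 1 of 18 higher and 4 lower (median 0.07), against 20.4% and 21.1% of all genes. Without HSC replicate 1, 2 or 3 the count was 0 higher and 2 lower, 0 higher and 3 lower or 0 higher and 1 lower, and without preGM replicate 1 or 3 it was 2 higher and 5 lower or 0 higher and 2 lower. Dot1l, the H3 lysine 79 methyltransferase that MLL fusions recruit, had 23.1, 24.96 and 19.3 CPM in HSC and 31.3, 34.2 and 32.6 CPM in preGM (log2 0.54 ± 0.22 SE, adjusted p = 0.055). Psip1, the chromatin tether of MLL, fell by 0.80 (adjusted p = 0.0114, 0.0521 without HSC replicate 3). Polycomb and DNA methylation genes had 2 of 20 higher and 5 lower (median -0.44), against 20.4% and 21.1% of all genes. With library size alone the count was 0 higher and 12 lower, against 1218 and 5515 of all 15711 genes. It was 1 higher and 3 lower without HSC replicate 3 or preGM replicate 3. Cbx7, the polycomb reader of stem cells, fell from 10.0, 10.8 and 5.73 CPM to 1.15, 1.04 and 1.13 CPM (log2 -2.99 ± 0.35 SE, adjusted p = 9.28e-06), and Tet1, a methylcytosine oxidase, from 21.8, 23.2 and 15.7 to 6.26, 3.02 and 6.18 CPM (log2 -1.97 ± 0.31 SE, adjusted p = 0.000166). Its relative Tet2 rose from 14.9, 10.9 and 9.16 to 30.9, 22.2 and 20.9 CPM (log2 1.08 ± 0.25 SE, adjusted p = 0.00284), with adjusted p = 0.162 by library size alone.

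Adhesion genes changed in both directions, 7 higher and 6 lower of 20, against 20.4% and 21.1% of all genes. Their median was -0.07 (WT 7 higher and 7 lower), and the count was 6 higher and 8 lower without preGM replicate 1 (median -0.34). Itgal, the LFA-1 integrin of leukocytes, rose from 0.570, 0.716 and 0.637 CPM to 65.5, 26.9 and 30.3 CPM (log2 5.99 ± 0.42 SE, adjusted p = 6.18e-08), more than in WT (interaction 2.51 ± 0.52 SE, adjusted p = 0.0131, lost in 3 of 21 alternatives). Itga6 and Alcam fell by 1.72 and 3.78 (adjusted p = 1.72e-05 and 9.42e-08).

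**Figure D3:**
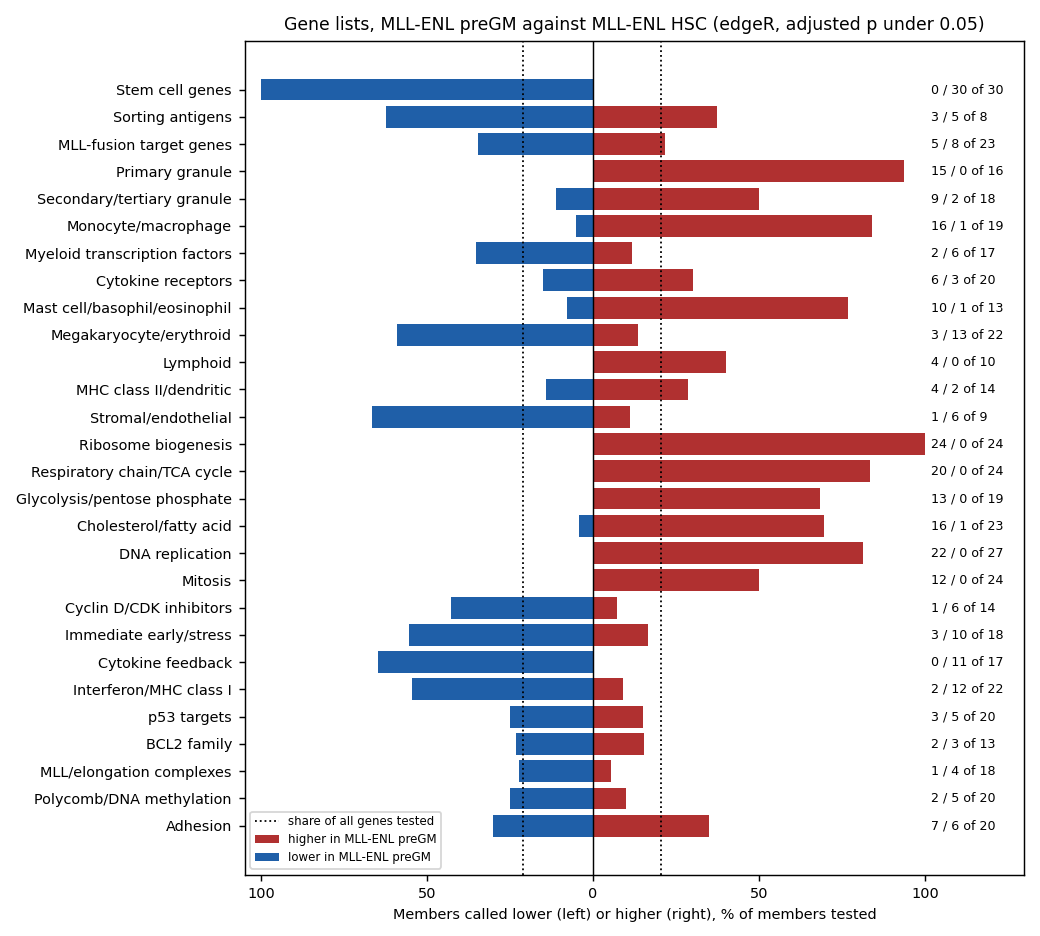
For each gene list, the percent of tested members that were called higher (right, red) or lower (left, blue) in MLL-ENL preGM than in MLL-ENL HSC, with counts at the right. Dotted lines mark the shares of all genes, 20.4% higher and 21.1% lower. Stem cell genes lie wholly on the left and ribosome biogenesis genes wholly on the right.

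Outside the lists, genes were named by size: the 12 protein-coding genes with the largest difference in each direction among those that passed, at 10 CPM or more in the higher group, with less than 10% of exon bases shared with another gene, which leaves out Mpo, and with no overlap of libraries. This last condition was met across all genes by 25.9% higher and 28.9% lower. Trem1, an activating receptor of myeloid cells (chromosome 17, 48232768 to 48246924) went from 0.0316, 0 and 0.0354 CPM to 19.8, 12.7 and 12.1 CPM (log2 9.07 ± 0.52 SE, adjusted p = 1.31e-08). The HSC libraries hold 2 counts of Trem1 in all, and the ratio of their summed CPM is 665, with a 95% exact interval of 184 to 5497 for counting error alone, so its place in the order is not firm. Trem3, a relative of Trem1, went from 0.760, 1.03 and 0.884 to 103, 218 and 207 CPM (log2 7.62 ± 0.48 SE, adjusted p = 2.3e-08). Ms4a2, the beta chain of the IgE receptor, and Ccr1, a chemokine receptor, had 49.0, 19.2 and 21.7 and 39.0, 28.8 and 33.1 CPM in preGM, with at most 0.158 and 0.190 CPM in HSC (log2 8.45 ± 0.67 SE, adjusted p = 1.86e-07, and 8.43 ± 0.60 SE, adjusted p = 6.85e-08). Clec5a, a myeloid lectin, rose by 7.52 ± 0.42 (SE, adjusted p = 1.06e-08) and Cst7, an inhibitor of granule cathepsins, by 7.39 ± 0.59 (SE, adjusted p = 1.96e-07). Ccr2, F13a1, Ctsg and Ly86, described above, are also among them, as is Atp8b4, a flippase, up by 7.59 (adjusted p = 1.02e-08).

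On the lower side, Obsl1, a cytoskeletal adaptor (chromosome 1, 75479310 to 75506452), went from 13.5, 11.8 and 8.70 CPM to 0.0188, 0 and 0.0552 CPM (log2 -8.60 ± 0.56 SE, adjusted p = 2.5e-08). The preGM libraries hold 3 counts of it in all, and HSC over preGM is 457, with a 95% exact interval of 156 to 2220.0 for counting error alone, so its place is not firm either. Clec1a, an endothelial-type lectin, had 31.2, 45.1 and 45.0 CPM in HSC and at most 0.166 CPM in preGM (log2 -8.39 ± 0.49 SE, adjusted p = 1.31e-08). Lhcgr, the luteinising hormone receptor, fell from 26.5, 37.6 and 31.8 CPM to at most 0.195 CPM (log2 -7.98 ± 0.59 SE, adjusted p = 9.53e-08). Mmrn1, multimerin of platelets and endothelium, fell from 56.4, 48.5 and 63.6 to 0.357, 0.650 and 0.138 CPM (log2 -7.22 ± 0.43 SE, adjusted p = 1.38e-08), and Iigp1, an interferon-induced GTPase, from 11.2, 12.3 and 14.2 to 0.0564, 0.130 and 0.0276 CPM (log2 -7.45 ± 0.48 SE, adjusted p = 2.5e-08). Bgn and Chad, matrix proteoglycan genes, Efna1, an ephrin, Tm4sf1, a tetraspanin-like membrane protein, and Abcg3, a transporter, fell by 6.97 to 8.34 (largest adjusted p = 4.04e-05). Sult1a1 and Fhl1, both among the stem cell genes, complete the set.

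Where the contrast differs between the genotypes was tested by the interaction of all 12 libraries. It passed for 492 genes (3.13%), 169 higher (1.08%) and 323 lower (2.06%) in the sense of MLL-ENL minus WT, and for 1926 when both libraries that stand apart were left out. Of the 323, 119 rose in WT and were not called with MLL-ENL, 81 fell with MLL-ENL and were not called in WT, 56 rose in both, 49 rose in WT and fell with MLL-ENL, and 18 fell in both. Of the 169, 68 fell in both genotypes, 57 fell in WT and were not called with MLL-ENL, 26 rose with MLL-ENL and were not called in WT, 10 rose with MLL-ENL and fell in WT, and 8 rose in both. Across all 15711 genes the MLL-ENL and WT differences had a Pearson correlation of 0.745, a description over genes that are not independent. Cd48 showed the largest positive interaction by the naming rule, 4.93 ± 0.47 (SE, adjusted p = 1.9e-05): WT HSC held 108, 134 and 91.4 CPM and WT preGM 437, 246 and 408 CPM. MLL-ENL HSC, with at most 6.44 CPM, lie far below WT HSC, while the preGM ranges of both genotypes are of the same order. Tespa1, a lymphocyte signalling gene, and Cd27, a TNF receptor family member, followed with 4.85 ± 0.51 (SE, adjusted p = 5.35e-05) and 3.51 ± 0.38 (SE, adjusted p = 6.93e-05). Tespa1 had 1.87, 1.51 and 1.63 CPM in MLL-ENL HSC and 51.8, 50.7 and 51.7 CPM in MLL-ENL preGM, against 16.9, 18.1 and 5.41 CPM in WT HSC and 14.6, 10.8 and 17.6 CPM in WT preGM. Cd27 had 97.6, 108 and 81.8 and 63.6, 113 and 101 CPM with MLL-ENL, which overlap, and 119, 114 and 109 and 11.2, 6.70 and 10.96 CPM in WT, which do not. F2rl2, a thrombin receptor gene, and Myct1, a membrane protein of stem and endothelial cells, had interactions of 3.36 ± 0.67 (SE, adjusted p = 0.00992) and 3.27 ± 0.35 (SE, adjusted p = 6.21e-05). F2rl2 rose by 1.47 with MLL-ENL (adjusted p = 0.0229, lost in 6 of 22 alternatives and 0.101 without HSC replicate 3) and fell by 1.89 in WT, and Myct1 fell in both genotypes, by 2.07 with MLL-ENL and by 5.34 in WT.

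The largest negative interactions by the naming rule were those of Ltf, Saa3, Camp and S100a9, followed by Ly6i, S100a8, Clec4n and Fcnb. Saa3, an acute phase protein, had 0.0633, 5.21 and 0.177 CPM in MLL-ENL HSC and 0.865, 1.92 and 3.95 CPM in preGM, against 10.7, 366 and 23.5 CPM in WT preGM (interaction -9.21 ± 2.14 SE, adjusted p = 0.0255). WT preGM replicate 2 holds the highest of these values and MLL-ENL HSC replicate 2 the highest in its group. The interaction of Saa3 was -6.26, adjusted p = 0.0751 without the first of these libraries and -5.34, adjusted p = 0.445 without the second. Ly6i had 0.357, 0.877 and 1.30 CPM in MLL-ENL preGM and 15.8, 31.6 and 9.99 CPM in WT preGM (interaction -8.01 ± 1.21 SE, adjusted p = 0.00137), Clec4n, the lectin dectin-2, 0.621, 1.202 and 2.59 and 8.96, 10.3 and 13.2 CPM (interaction -7.87 ± 1.96 SE, adjusted p = 0.0371), and Fcnb, ficolin B, 0.0752, 0.195 and 0.331 and 82.6, 41.9 and 61.1 CPM (interaction -7.74 ± 1.36 SE, adjusted p = 0.00438). WT HSC hold 2 counts of Ly6i and 3 of Clec4n in all, so the fitted size of both depends on the prior count. In MLL-ENL HSC, Clec4n had 0, 5.49 and 0.0707 CPM, so replicate 2 again stands out, and without it the interaction was -2.28, adjusted p = 0.657. Fcnb without the same library had an interaction of -7.28, adjusted p = 0.0591.

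**Figure D4:**
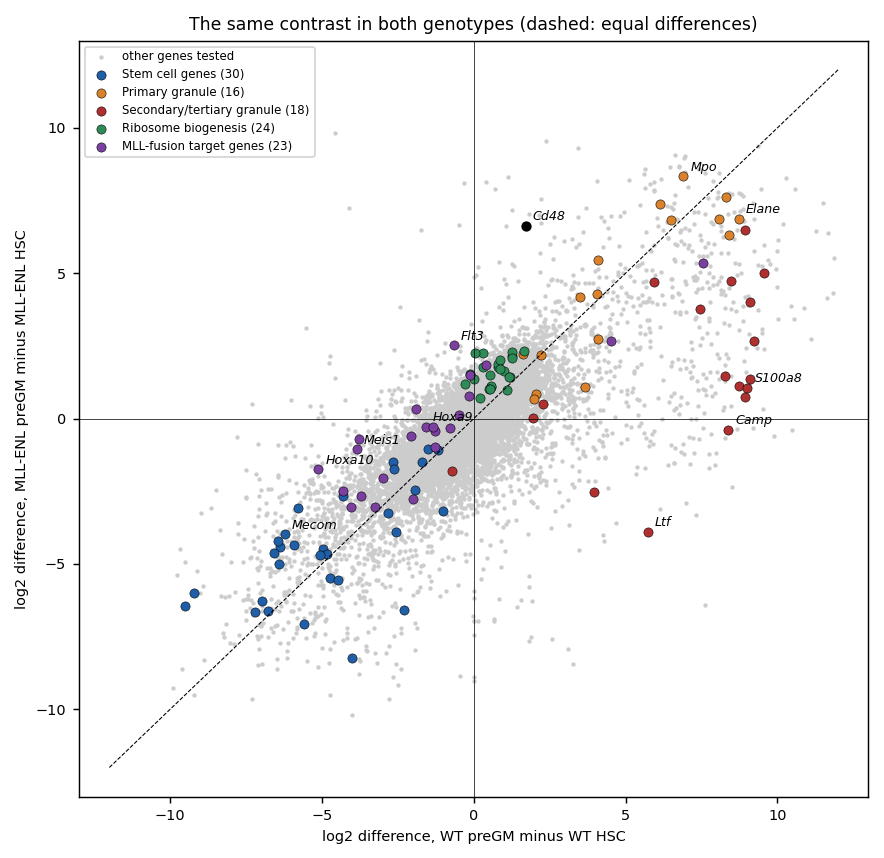
Log2 difference between preGM and HSC in WT (horizontal) and with MLL-ENL (vertical) for 15711 genes, with 5 gene lists in colour and equal differences on the dashed line. Primary granule genes are high in both, while S100a8, Camp and Ltf lie far below the line and Cd48, Flt3 and Hoxa10 above it.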

How the data were processed

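RNA-seq was made from 12 samples with the RNeasy micro and SMARTer low input kits, and 6 of them make up the main comparison. The authors deposited exon tables with a read count and an RPKM value for each exon of each transcript, per the file headers. TopHat2 2.0.8, Bowtie2 2.1.0, HTSeq and edgeR are named in the submitters' processing notes, without roles. For the genome build the authors aligned to, no statement was found in the labels or file headers. Transcript identifiers were matched to GENCODE M21 on GRCm38, whose 1-based gene coordinates are printed: 89664 of 93615 matched (95.8%), 2890 more were placed by overlap, and 1061 with 1.23% to 3.20% of counts were left out.

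A gene's count is the sum over its largest set of non-overlapping exons, which avoids counting shared exons of several transcripts again; summing every distinct interval gives 1.65 to 1.74 times as many counts. Genes were tested on all 12 libraries with edgeR 4.0.16 (R 4.3.3): filterByExpr with 10 counts in enough libraries and 15 in total, TMM scaling, and robust quasi-likelihood tests of preGM against HSC with MLL-ENL, in WT, and of their difference, the interaction. A common spread over the 12 libraries was used because each group has 3. Values of CPM are per replicate, n = 3 per group, and SE is the log2 difference over the root of F. The deposited RPKM values were not used in tests: limma 3.58.1 used RPKM rebuilt from the gene counts with 0.1 or 1 added. Other alternatives were DESeq2 1.42.0, library size alone, no filter, other ways of summing exons, a replicate block, each library left out, both libraries that stand apart left out, and the genotypes apart. Total gene counts per library and floors of 3 counts set the depth, and all intervals cover counting error only, since the reads have no molecular identifiers.

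The members and gene lists were chosen with earlier results of these data known. Named genes are key members of the lists, the 12 largest differences and 8 largest interactions in each direction among genes that share less than 10% of exon bases with another gene, up to 4 members of a list in each direction, and Kmt2a, Mllt1 and Col1a1. Chosen after their values were seen were Cad, Calr, Cd74, Col1a2, Erg, G6pdx, Gbp2, H2-K1, Ier3, Itga6, Klf6, Lgals3, Lmo2, Ly6c2, Mcm5, Mcpt8, Plac8, Prg2, Srgn, Tal1, Tie1, Tkt, Tyms and Zfp36. A few genes that the rule selects are not reported here. Atp5o, Aldoa and Gpr56 had no unique match by symbol. Promoters are RefSeq sequences of 27025 genes. Tested on simulated counts of 15711 genes with 200 changed, the main comparison recovered 16% of 2-fold and 90% of 4-fold changes, and 3 of its calls (2.75%) were unchanged genes. The simulation used a dispersion of 0.1 for every gene, with no exon-length pattern and no library that stands apart. It changed far fewer genes than the 41.5% called here, so these shares need not hold for the data. The lowest chi-square per degree of freedom between replicates was 17.0, so no pair agreed within sampling noise.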

Additional observations from a re-analysis of the deposited data

Results flagged for a closer look

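For 55 of the genes named above, the difference between preGM and HSC was not the same with MLL-ENL as in WT by the interaction test of edgeR (adjusted p under 0.05 over all genes). Values are log2, MLL-ENL minus WT, and 26 of the 55 lost the call in at least 1 of 21 alternatives. Those lost in most of the 21 were Rb1 (18), Clec4n and Zfp36 (15 each), Tkt (14), Itga2b (13), Hoxa9 and Saa3 (12 each) and Rrp12 (11).

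Among HOXA genes and their partners, Hoxa10 differed by 3.39, Meis1 by 2.80, Hoxa7 by 2.24, Mef2c by 1.48 and Hoxa9 by 1.30. Flt3 differed by 3.18, Cd34 by 3.20 and Spi1 by -2.33. Of sorting antigens, Cd48 differed by 4.93, Slamf1 by 2.999, Itga2b by 2.16, Ly6a by -2.42 and Fcgr3 by -2.40. Of stem cell genes, Fgd5 differed by 3.21, Mecom by 2.25, Sult1a1 by -4.24 and Mllt3 by -1.33.

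Of granule and acute phase genes, the values were negative for these members: Ltf -9.63, Saa3 -9.21, Camp -8.76, S100a9 -8.21, S100a8 -7.94, Fcnb -7.74, Ngp -7.61, Lcn2 -4.54 and Elane -1.86. Of monocyte and antigen presentation genes, Ly6i differed by -8.01, Clec4n by -7.87, Cd74 by -5.66, Lgals3 by -4.98, Lyz2 by -3.43 and Ly6c2 by -3.25. Of mast cell and basophil genes, Fcer1a was at 2.82, Cpa3 at -3.01 and Mcpt8 at -3.42.

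Tespa1 differed by 4.85 and Cd27 by 3.51. Satb1, of the lymphoid list, differed by 3.03. Of the 10 tested members of that list, 2 passed with a positive interaction, against 1.08% of all genes. The median of the list was 0.02, against 0.07 over all genes. The fitted 14.39 of Dntt rests on a group with no counts and depends on the prior count, so its size is no measurement. Growth genes Nat10, Rrp12 and Cad had 2.21, 1.96 and 1.36, while Tkt had -1.91, Rb1 -1.18 and Btg2 -1.94. Signalling and adhesion genes had -3.89 for Id2, -1.92 for Klf6, -1.63 for Zfp36, 2.51 for Itgal and -2.60 for Alcam. Of the largest differences, F2rl2 had 3.36, Myct1 3.27, Clec1a -3.61, Abcg3 -4.60 and Tm4sf1 -7.12. For Tm4sf1 the interaction was -1.86, adjusted p = 0.938 without WT preGM replicate 1.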

How the results depend on the processing

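All alternatives kept the total of genes called between preGM and HSC with MLL-ENL within 1.5 times, from 5039 to 8155, but the split into higher and lower follows the scaling. Library size alone gave 1218 higher and 5515 lower, and limma on log2(RPKM + 0.1) and log2(RPKM + 1) gave 1154 and 5713, and 1114 and 5764. In WT the same settings gave 1190 and 6149, 1220 and 5791, and 1145 and 5459. Leaving out each library in turn gave 2298 to 3625 higher and 2571 to 3651 lower with MLL-ENL. The interaction called 1051 genes with DESeq2 (388 and 663), 600 lower with limma on log2(RPKM + 1), 1926 without both libraries that stand apart (1064 and 862), and 299 to 694 with each library left out (90 to 250 higher and 209 to 444 lower). The cause of these changes was not tested. The replicate block gave 2835 and 3187 genes with MLL-ENL and 403 for the interaction. Deviations of same-numbered libraries from their group means correlate at -0.013 to -0.004 with MLL-ENL and -0.104 to 0.004 in WT. With 3 libraries per group these values cannot show whether equal numbers share an animal, sort or culture. Of the 165 named genes tested, 146 were called with MLL-ENL, 128 of them under every alternative, and no called gene reversed. Reversals of the MLL-ENL difference concern genes that missed the test. With library size alone and limma on either scale these were Hoxa7 (-0.27, -0.27 and -0.26), Mllt1 (-0.49, -0.48 and -0.40), Dot1l (-0.0349, -0.0318 and -0.0261), Tkt (-0.26, -0.29 and -0.29) and, with limma, Cd34 (-0.0337 and -0.0322). Mllt1, Camp, Cd27, Cd74, Saa3 and Clec4n also reversed with a library left out or, for some, under another setting: -0.0125 for Mllt1, 0.19 for Camp, 0.12, 0.0458, 0.17 and 0.17 for Cd27, 0.0956, 0.0677 and 0.0696 for Cd74, -0.30, -0.26, -0.21 and -0.37 for Saa3 and 1.01, 0.62, 5.28, 0.0730 and 0.0726 for Clec4n. Spi1 reversed with the longest transcript (0.56), and the interactions of Mecom (-0.83) and Fgd5 (-0.0149) with limma on log2(RPKM + 1). With each library left out in turn the differences ranged -0.66 to 0.19 for Camp, -0.21 to 0.17 for Cd27, -0.46 to 0.10 for Cd74, -1.02 to 5.28 for Clec4n, -0.01 to 0.18 for Mllt1 and -0.37 to 4.19 for Saa3. Genes near the floor of 3 counts (0.107 CPM in MLL-ENL HSC and 0.0789 CPM in MLL-ENL preGM) cannot be ranked firmly by fold, Trem1 and Obsl1 included.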

Other observations

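The most abundant genes, picked after their values were seen, are given here with no test. In MLL-ENL HSC the highest group means were those of mt-Atp6 (9217 CPM), mt-Rnr2 (9189 CPM) and mt-Co3 (8498 CPM), and in MLL-ENL preGM those of Npm1 (8751 CPM), Mpo (7955 CPM) and mt-Co3 (7700.0 CPM). Counts assigned to Lars2, the gene of a mitochondrial leucyl-tRNA synthetase, held rank 4 in both groups, with 6425 and 7115 CPM. Those assigned to Gm42418 held rank 7 in HSC (3980 CPM) and rank 11 in preGM (4661 CPM). Whether the reads of these 2 genes come from their own transcripts was not tested.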
